A study of Mus musculus with 12 samples.

Results

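The Iroquois homeobox family was followed through developing mouse forelimb cartilage. Its 6 members, *Irx1* to *Irx6*, were chosen by gene symbol and each matched 1 of the 36186 rows of the RNA-Seq table. Expression had been measured in 12 libraries of chondrocytes that were cut from 10 μm sections of the E15.5 forelimb zeugopod (the radius and ulna) by laser capture microdissection (LCM). Wild type (WT) embryos gave 3 libraries of resting, 3 of proliferative and 3 of hypertrophic chondrocytes, and *aadd* embryos gave 3. The *aadd* embryos were homozygous for frameshift mutations in *Hoxa9*, *Hoxa10*, *Hoxa11*, *Hoxd9*, *Hoxd10* and *Hoxd11*, in the germline and so in every cell. All embryos, WT and mutant, were of a mixed 129/CD-1 strain background. The mutant zeugopod was small and its chondrocytes were taken whole, so an *aadd* library was not cut from 1 compartment, although its GEO label reads resting. The GEO labels name the hypertrophic samples hyperproliferative, and the term hypertrophic is used here. Captured cells included some flanking perichondrium.

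Iroquois proteins are transcription factors of the TALE homeobox class, which carry a homeodomain with an extra loop and a short family motif called the Iro box. In mammals the genes lie in a pair of clusters, IrxA and IrxB. They are known for patterning of the neural tube, heart and limb, where *Irx3* and *Irx5* act together in early limb bud progenitors. Cartilage of a long bone grows by the passage of resting chondrocytes through a proliferative to a hypertrophic state, after which bone forms in their place.

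The values were NRPKM, read counts scaled for transcript length and library size and then scaled further between libraries, and levels of genes can therefore be compared per length. Depth was read from the smallest steps of the values and corresponded to 2400000 to 2950000 reads in WT resting, 1890000 to 2620000 in WT proliferative, 2340000 to 3240000 in WT hypertrophic and 2200000 to 2860000 in *aadd*. These estimates take no account of the further scaling, whose size is not known, so they may differ from the true read totals. The hypertrophic marker *Col10a1* was at 166 to 264 NRPKM in WT hypertrophic, 43.6 to 111 in WT proliferative, 1.86 to 5.79 in WT resting and 3.93 to 4.39 in *aadd*. Transcripts of the 6 mutated Hox genes were present in *aadd*, from 8.76 NRPKM for *Hoxa11* to 46.3 for *Hoxd10* (means, n = 3). A frameshift need not remove the transcript, so these levels do not check the genotype. WT hypertrophic replicate 1 stood apart from the other 2 libraries of its group, with summed chondrocyte markers at 2902 NRPKM against 654 and 932. WT resting replicate 2 held epidermal markers at 220 NRPKM summed, against 9.76 and 34.0 in the other resting libraries. Differences of *Irx5* and *Crnde*, and those of *Irx3* and *Irx6* between WT hypertrophic and WT resting, are also given without them.

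*Irx3*, *Irx5* and *Irx6* form the IrxB cluster on chromosome 8, within 881.57 kb (build mm10). *Irx3* (Entrez 16373) lay at chr8:91798511-91801654 on the minus strand, *Irx5* (54352) at chr8:92357796-92361456 and *Irx6* (64379) at chr8:92674402-92680080, both on the plus strand. *Irx1* (16371, chr13:71958232-71963723, minus strand), *Irx2* (16372, chr13:72628978-72634194, plus strand) and *Irx4* (50916, chr13:73260497-73269620, plus strand) form IrxA, within 1311.4 kb. The exons counted summed to 2062 bases in *Irx1* and 2601 in *Irx4*, with the other members between these.

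The homeobox is the part that the members share, and reads that aligned to several places had been removed, so its sequence bears on what could be counted. The 189 coding bases of the homeobox of *Irx5* are shown with those of *Irx2*, whose homeodomain is the same, and of *Irx3*, the IrxB member with the next highest level in WT hypertrophic. They were read 5′ to 3′ from GENCODE M21 transcripts (GRCm38). Each lies within the second exon, at chr8:92359624-92359812 (plus strand) in *Irx5*, chr13:72630661-72630849 (plus strand) in *Irx2* and chr8:91800499-91800687 (minus strand) in *Irx3*. Capitals mark bases that differ from *Irx5*.
Irx5: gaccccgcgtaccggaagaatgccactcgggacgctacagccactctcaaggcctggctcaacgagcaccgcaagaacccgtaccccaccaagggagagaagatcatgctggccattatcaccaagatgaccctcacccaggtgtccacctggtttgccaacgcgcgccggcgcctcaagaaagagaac
Irx2: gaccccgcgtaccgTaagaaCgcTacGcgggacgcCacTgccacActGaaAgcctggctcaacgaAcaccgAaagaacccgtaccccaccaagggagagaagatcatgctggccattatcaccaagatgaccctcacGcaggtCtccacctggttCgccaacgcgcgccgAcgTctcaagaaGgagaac
Irx3: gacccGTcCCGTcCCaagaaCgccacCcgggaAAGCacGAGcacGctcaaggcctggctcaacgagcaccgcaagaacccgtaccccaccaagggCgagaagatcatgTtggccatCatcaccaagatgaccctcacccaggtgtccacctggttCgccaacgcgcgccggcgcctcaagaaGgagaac
*Irx2* differed from *Irx5* at 17 of 189 bases and at 0 of 63 residues encoded. *Irx3* differed from *Irx5* at 23 bases, with 57 of 63 residues the same. *Irx1*, *Irx6* and *Irx4* differed from *Irx5* at 28, 27 and 29 bases. Over whole transcripts the longest run shared with *Irx5* was 65 bases in *Irx2*, 50 in *Irx3*, 38 in *Irx6*, 32 in *Irx1* and 23 in *Irx4*. The longest between any pair was 88 bases, between *Irx3* and *Irx6*. The read length is not given in the sources used here, and reads lost from these stretches could not be counted.

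*Irx5* was the member with the highest level. In WT hypertrophic chondrocytes it was at 19.6, 16.4 and 16.9 NRPKM, on 110, 127.9 and 121.1 reads. In WT proliferative chondrocytes it was at 2.86, 1.31 and 0.220 NRPKM, on 18, 6 and 1 reads. In WT resting chondrocytes it was at 0, 0.173 and 0 NRPKM, which was 1 read in all. In *aadd* it was at 0, 1.32 and 0 NRPKM, with 7 reads in replicate 2. All hypertrophic libraries lay above all others, all proliferative libraries lay above all resting ones (at the margin by 1 read against 1 read), and *aadd* overlapped both the resting and the proliferative range.

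**Figure D1:**
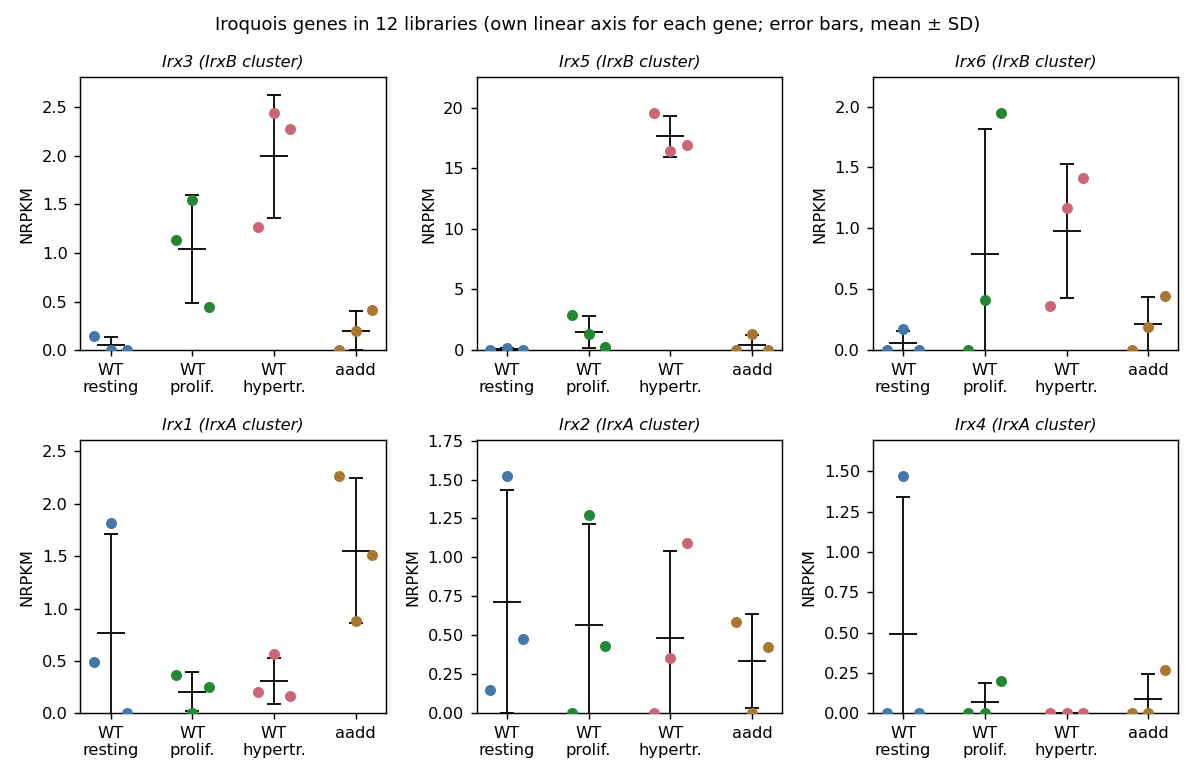
NRPKM of the 6 Iroquois genes in each of 12 libraries, with points for the 3 libraries of a group, a dash for the mean and bars for the SD (drawn down to 0), each gene on its own linear axis. *Irx5* sits at 16.4 to 19.6 in WT hypertrophic and at or below 2.86 in the other 9 libraries, while no other member exceeds 2.44.

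The group means of *Irx5* were 17.6 ± 1.70 (SD, n = 3) in WT hypertrophic, 1.46 ± 1.33 in WT proliferative, 0.442 ± 0.765 in *aadd* and 0.0578 ± 0.10 in WT resting. In this order the neighbours *aadd* and WT resting did not differ beyond their spread, nor did WT proliferative and *aadd*. Each of the 3 resting libraries had at most 1 read, so folds against resting are lower bounds, set against the value of 3 reads per library. *Irx5* was at least 37.0-fold higher in WT hypertrophic than in WT resting, and 35.0 to 38.7 when any 1 hypertrophic or resting library was left out. Between WT proliferative and WT resting the bound was at least 3.07-fold, with 1.60 to 4.37 when any 1 proliferative or resting library was left out. In bulk samples like these, more cells that express a gene and more RNA per cell cannot be told apart.

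The differences were tested with limma's moderated test on log2(NRPKM + 0.1), over the 10936 genes that reached 5 NRPKM in 3 or more libraries. A gene passed at an unadjusted *P* up to 0.05 with a fold change (FC) of at least 2, or 1.5 between *aadd* and WT resting. *Irx5* entered only through its 3 hypertrophic libraries, so a difference between hypertrophic and other samples was built into its entry, and the other 5 members did not enter. Between WT hypertrophic and WT resting *Irx5* rose by 6.98 on the log2 scale (SE 0.42, Benjamini-Hochberg adjusted *P* = 9.71e-04 by limma), the 6th highest difference of all genes tested. Of these genes 13.0% passed, 6.36% had an adjusted *P* under 0.05, and in 32.0% the libraries of 1 group all lay above those of the other. Leaving out any 1 library gave 6.74 to 7.47. Without WT hypertrophic replicate 1, and with the same genes tested, it was 6.91 (adjusted *P* = 0.00117 by limma), and without WT resting replicate 2 it was 7.47.

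Between WT hypertrophic and WT proliferative *Irx5* rose by 4.01 (SE 0.77, adjusted *P* = 0.122 by limma), the 15th highest difference. The level filter built a difference from hypertrophic libraries into this comparison too. Here 9.67% of genes passed and 24.2% did not overlap, and 0 genes had an adjusted *P* under 0.05 by limma, while 2115 had an unadjusted one. That count of 0 rested on WT hypertrophic replicate 1, without which 1833 genes had an adjusted *P* under 0.05 by limma, and with all 12 libraries in one fit it was 705. The adjusted *P* of *Irx5* by limma was 0.0446 without that library, with the same genes kept and a difference of 3.93, and 0.0456 in the fit of 12 libraries. Between WT proliferative and WT resting *Irx5* rose by 2.98 (SE 0.84, adjusted *P* = 0.188 by limma), where 5.53% of genes passed and 24.0% did not overlap. Without WT resting replicate 2 it was 3.46 (adjusted *P* = 0.314 by limma). With a variance trend on intensity the difference between WT proliferative and WT resting no longer passed (adjusted *P* = 0.539 by limma). In *aadd* *Irx5* was lower than in WT hypertrophic, with a log2 difference of -6.19 (SE 1.01, adjusted *P* = 0.0183 by limma), again with a difference built in by the filter. In that comparison 13.3% of genes passed, 7.64% had an adjusted *P* under 0.05 and 30.9% did not overlap. The adjusted *P* by limma was 0.0773 without *aadd* replicate 1 and 0.0793 without *aadd* replicate 3. With the same genes kept, it was 0.0153 without WT hypertrophic replicate 1, 0.0571 without replicate 2 and 0.0660 without replicate 3. Without the level filter it was 0.0658.

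*Irx5* did not pass between *aadd* and WT resting, where its fitted difference was 0.79 (SE 1.05, adjusted *P* = 0.847 by limma) and 6.56% of genes passed. Without *aadd* replicate 2, the 1 mutant library with *Irx5* reads, the difference was -0.48, and without WT resting replicate 2 it was 1.28. *aadd* replicate 2 also had the highest summed osteoblast and perichondrium markers of the mutants, 1008 NRPKM against 391 and 474. It had the highest endothelial and macrophage sums too, 59.9 and 63.3. Its hypertrophic chondrocyte sum was the highest as well, 62.3 against 44.8 and 57.5, as were its chondrocyte, osteoclast, muscle and erythroid sums. Its epidermal and Schwann cell sums were the lowest of the mutants. The part of any of these cells in its *Irx5* value was not tested. *Irx5* did not pass between *aadd* and WT proliferative either (-2.18, SE 1.22, adjusted *P* = 0.398 by limma), where 8.02% of genes passed. Without *aadd* replicate 2 it was -3.46 (adjusted *P* = 0.149 by limma), and without WT proliferative replicate 3 it was -3.07 (adjusted *P* = 0.277 by limma), and both passed the unadjusted limits. Over the 4 groups together the moderated F test gave *Irx5* an adjusted *P* of 0.00565 (limma). There 31.0% of genes had an unadjusted *P* under 0.05, and 1505 of 10936 had an adjusted one. *Irx5* was in this test only through its hypertrophic libraries, so a group difference was built in.

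**Figure D2:**
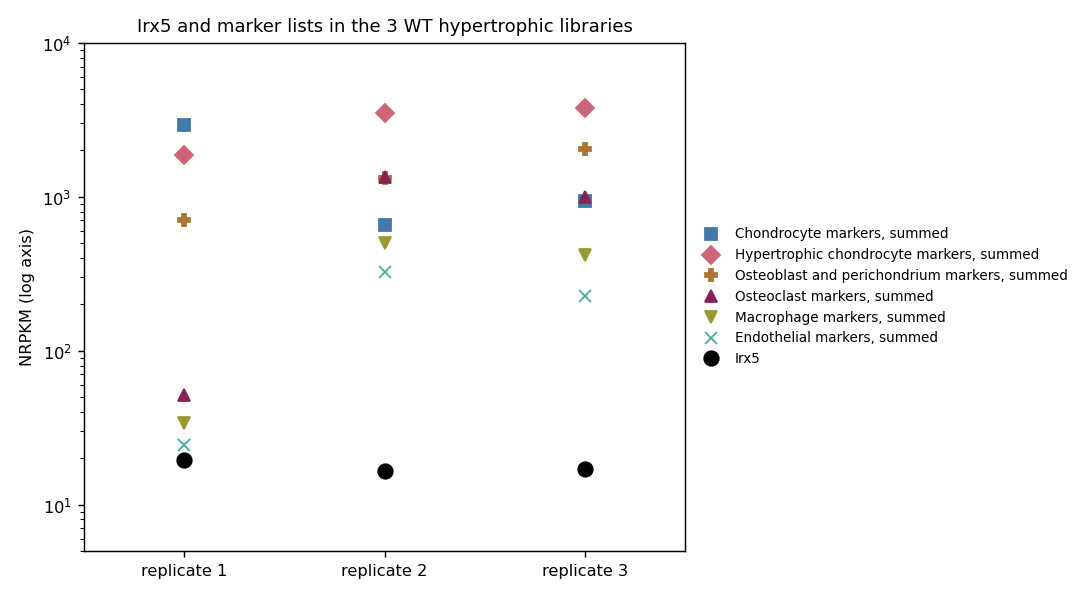
NRPKM on a log axis of *Irx5* (black circles) and of summed marker lists in the 3 WT hypertrophic libraries. Osteoclast, macrophage and endothelial markers are at 51.5, 33.7 and 24.4 in replicate 1 and at 227 or above in replicates 2 and 3, while *Irx5* is at 19.6, 16.4 and 16.9.

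The hypertrophic libraries differed in their content of other cells, and their *Irx5* values stayed within 16.4 to 19.6 NRPKM. Osteoclast markers summed to 51.5 NRPKM in replicate 1 against 1351 and 995, macrophage markers to 33.7 against 501 and 420, and endothelial markers to 24.4 against 324 and 227. Osteoblast and perichondrium markers summed to 706 in replicate 1 against 1316 and 2042, and hypertrophic chondrocyte markers to 1871 against 3473 and 3776. *Irx5* in replicate 1 was 1.18 times the mean of replicates 2 and 3. Over the 582 genes that were higher in WT hypertrophic than in WT proliferative, the median of this ratio was 0.540, and 65 of them (11.2%) were at or above 1. Replicate 1 also differed in its chondrocyte markers, as given above, and the part of other cells in the *Irx5* values was not tested.

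*Irx3*, the partner of *Irx5* in the limb bud, had the same order of the 3 WT compartments at far lower levels. In WT hypertrophic it was at 1.27, 2.44 and 2.27 NRPKM, on 7, 18.7 and 16 reads. In WT proliferative it was at 1.13, 1.55 and 0.448 NRPKM, on 7, 7 and 2 reads. In WT resting it was at 0.143, 0 and 0 NRPKM, with 1 read in all, and in *aadd* at 0, 0.192 and 0.411. The hypertrophic and proliferative ranges overlapped, and both lay above all resting and all *aadd* libraries. At the margin WT proliferative replicate 3 was at 0.448 NRPKM on 2 reads and *aadd* replicate 3 at 0.411 on 2.8 reads. Of the genes that passed the level filter, 32.0% and 24.0% did not overlap in the comparisons with resting. In those with *aadd* it was 30.9% and 25.6%. No such share was computed for genes below the filter, *Irx3* among them. *Irx3* was at least 4.11-fold higher in WT hypertrophic than in WT resting, and at least 4.05-fold higher than in *aadd*, against 3 reads per library.

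*Irx6*, the third IrxB member, was seen in fewer reads. It was at 0.360, 1.17 and 1.41 NRPKM in WT hypertrophic and at 0, 0.413 and 1.95 in WT proliferative, with at most 10 reads in a library. It was at 0, 0.175 and 0 in WT resting and at 0, 0.191 and 0.443 in *aadd*. All hypertrophic libraries lay above all resting ones, at the margin by 2 reads against 1 read, and every other pair of groups overlapped. Of the genes that passed the level filter, 32.0% did not overlap between hypertrophic and resting.

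The IrxA members did not share the order of the WT compartments seen in *Irx3* and *Irx5*. *Irx1* was highest in *aadd*, at 2.26, 0.882 and 1.51 NRPKM on 13, 4 and 8.9 reads. It was at 0.492, 1.82 and 0 in WT resting, at 0.370, 0 and 0.257 in WT proliferative and at 0.208, 0.566 and 0.163 in WT hypertrophic. The mutant libraries lay above all proliferative and hypertrophic ones and overlapped the resting range through WT resting replicate 2. At the margin *aadd* replicate 2 had 4 reads and WT hypertrophic replicate 2 had 3.8. Of the genes that passed the level filter, 25.6% did not overlap between *aadd* and proliferative, and 30.9% between *aadd* and hypertrophic. *Irx2* was detected in every group, at 0.151, 1.52 and 0.476 NRPKM in WT resting, 0, 1.27 and 0.430 in WT proliferative, 0, 0.356 and 1.09 in WT hypertrophic and 0.583, 0 and 0.426 in *aadd*. All 4 groups overlapped. *Irx4* was above 0 in 3 libraries only, at 1.47 in WT resting replicate 2, 0.204 in WT proliferative replicate 3 and 0.269 in *aadd* replicate 3. WT resting replicate 2, the library with epidermal markers at 220 NRPKM, held the highest WT value of each of the 3 IrxA genes. The part of the epidermal transcripts in those values was not tested.

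The 5 members below the level filter were tested in the fit without it, where genes at 0 in every library of a comparison were left out. Of the 6 members, *Irx3* and *Irx5* were higher in WT proliferative than in WT resting, against 7.26% of all genes passing. *Irx3* rose by 2.95 (SE 0.57, adjusted *P* = 0.184 by limma). *Irx3*, *Irx5* and *Irx6* were higher in WT hypertrophic than in WT resting, against 12.5% of all genes. *Irx3* rose by 3.91 (SE 0.47, adjusted *P* = 0.0318 by limma), and 1.31% of genes had an adjusted *P* under 0.05. The adjusted *P* of *Irx3* by limma was 0.109 without WT resting replicate 2, 0.109 without WT resting replicate 3, 0.115 without WT hypertrophic replicate 2 and 0.110 without WT hypertrophic replicate 3, where it still passed the unadjusted limits, and 0.0179 without WT hypertrophic replicate 1. *Irx6* rose by 2.77 (SE 0.64, adjusted *P* = 0.121 by limma), by 3.30 without WT hypertrophic replicate 1 (adjusted *P* = 0.0361 by limma) and by 3.26 without WT resting replicate 2 (adjusted *P* = 0.167 by limma). Between WT hypertrophic and WT proliferative *Irx5* alone passed, against 9.42% of genes, and *Irx3* differed by 0.96 (SE 0.51, adjusted *P* = 0.474 by limma). No fitted rise of a gene at 0 in most libraries is a bound on its true change, since it depends on the pseudocount.

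Between *aadd* and WT resting 0 of 6 members passed (limma), against 5.82% of genes, and 0 had an unadjusted *P* under 0.05. *Irx1* had the largest difference there, 1.68 (SE 1.10, adjusted *P* = 0.816 by limma), with overlap. Between *aadd* and WT proliferative *Irx1* was higher by 2.60 (SE 0.68, adjusted *P* = 0.243 by limma) and *Irx3* lower (-2.07, SE 0.73, adjusted *P* = 0.379 by limma), against 8.21% of genes. *Irx3* no longer passed without WT proliferative replicate 1 or 2 or *aadd* replicate 1 or 2, where it ranged from -2.20 to -1.42. Between *aadd* and WT hypertrophic *Irx1* was higher by 2.04 (SE 0.51, adjusted *P* = 0.139 by limma). *Irx3* was lower (-3.04, SE 0.66, adjusted *P* = 0.103 by limma), and *Irx5* and *Irx6* were lower too, against 12.2% of genes. The difference of *Irx6* was -1.93 (adjusted *P* = 0.320 by limma) with overlapping libraries, and it did not pass without WT hypertrophic replicate 2 or 3 or *aadd* replicate 1 or 2, where it ranged from -2.04 to -1.27. Over the 4 groups *Irx3* (adjusted *P* = 0.0253) and *Irx5* (adjusted *P* = 0.0215) passed the F test of limma, and *Irx1*, *Irx2*, *Irx4* and *Irx6* did not. In that test 19.4% of genes had an unadjusted *P* under 0.05, and 907 of 23070 had an adjusted one. The comparisons that share a group are not independent of each other.

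**Figure D3:**
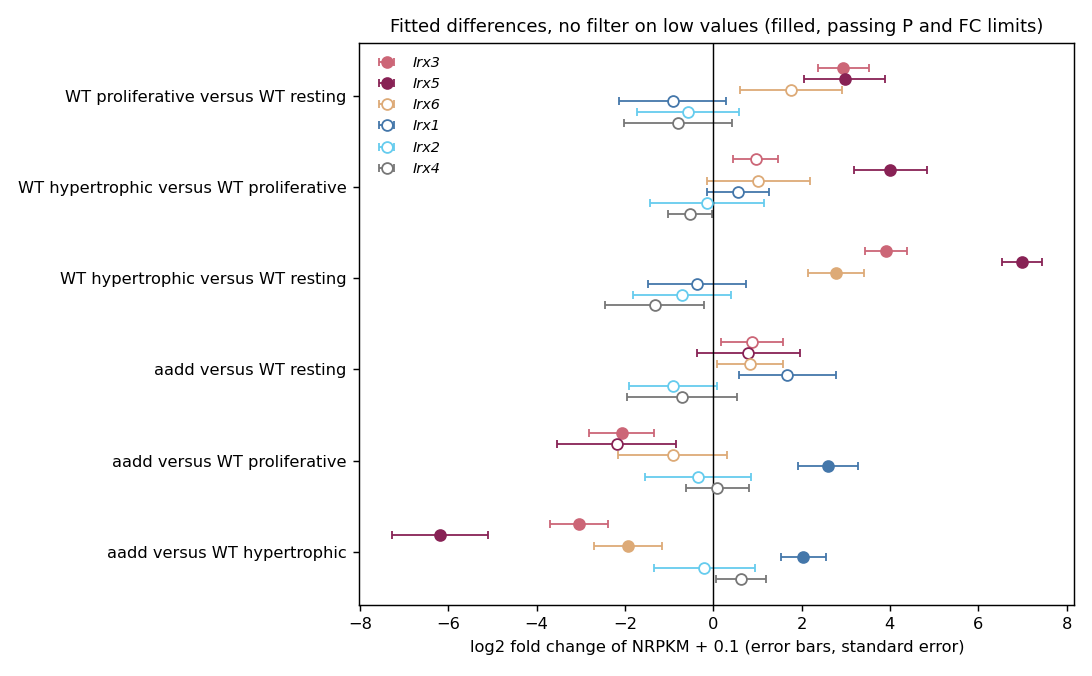
Fitted log2 differences of the 6 members in each comparison without the level filter (x axis, log2 of NRPKM + 0.1), with bars for the standard error and filled points where a member passed the *P* and FC limits. The IrxB genes *Irx3*, *Irx5* and *Irx6* lie to the right in WT hypertrophic versus WT resting, at 3.91, 6.98 and 2.77, and the IrxA genes *Irx1*, *Irx2* and *Irx4* lie at -0.36, -0.70 and -1.32 without passing.

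The balance between clusters differed between the groups. The summed level of *Irx3*, *Irx5* and *Irx6* was 21.2, 20.1 and 20.6 NRPKM in WT hypertrophic, 3.99, 3.27 and 2.62 in WT proliferative, 0.143, 0.348 and 0 in WT resting and 0, 1.71 and 0.854 in *aadd*. The summed level of *Irx1*, *Irx2* and *Irx4* was 0.208, 0.922 and 1.25 in WT hypertrophic, 0.370, 1.27 and 0.891 in WT proliferative, 0.644, 4.81 and 0.476 in WT resting and 2.85, 0.882 and 2.21 in *aadd*. IrxB exceeded IrxA in every WT proliferative and WT hypertrophic library, and IrxA exceeded IrxB in every WT resting library and in 2 of 3 *aadd* libraries. The resting order rested on few reads. In WT resting replicate 1 IrxA had 3 reads of *Irx1* and 1.1 of *Irx2*, against 1 read of *Irx3*. In replicate 3 it had 3 reads of *Irx2* only, and replicate 2 was the library with epidermal markers at 220 NRPKM. *Irx5* made up 77.4% to 91.4% of the summed level of the family in WT hypertrophic.

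Within WT hypertrophic the order of levels was *Irx5*, *Irx3* (2.0 ± 0.64, SD, n = 3), *Irx6* (0.980 ± 0.550), *Irx2* (0.482 ± 0.556), *Irx1* (0.312 ± 0.221) and *Irx4* (listed at 0). *Irx5* lay above every value of the others, while each following pair of neighbours down to *Irx1* overlapped. Over the 12 libraries the Pearson correlation of log2(NRPKM + 0.1) was 0.83 between *Irx3* and *Irx5* (Spearman 0.80), 0.63 between *Irx3* and *Irx6* and 0.50 between *Irx5* and *Irx6*. Leaving out any 1 library kept the first between 0.80 and 0.88. In IrxA it was 0.47 between *Irx1* and *Irx4* and 0.44 between *Irx2* and *Irx4*, falling to 0.27 and 0.18 without WT resting replicate 2, and -0.05 between *Irx1* and *Irx2*. The points share library and depth, and libraries of a group are not independent of it, so these values are descriptions only.

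**Figure D4:**
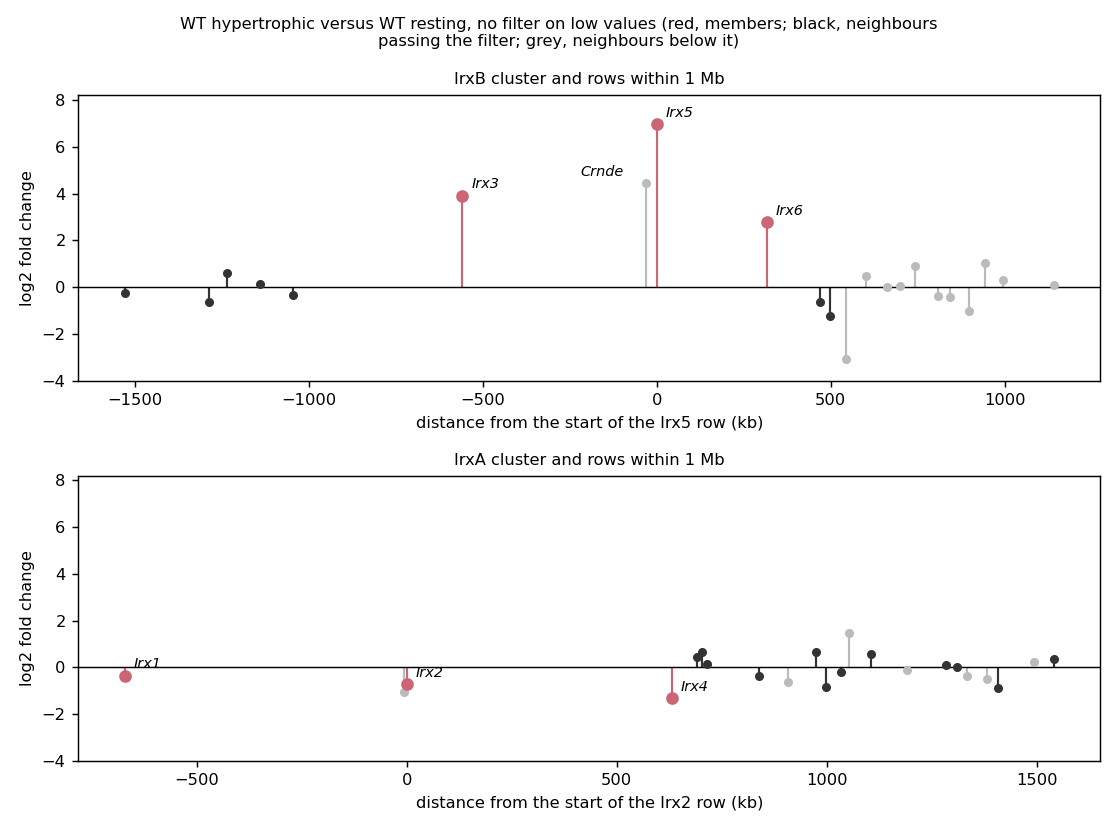
Log2 difference between WT hypertrophic and WT resting (y axis, no level filter) for each row above 0 in these libraries and within 1 Mb of the IrxB cluster (upper panel) or the IrxA cluster (lower panel), by distance in kb from the start of *Irx5* or *Irx2*. *Irx3*, *Irx5*, *Irx6* and *Crnde* stand at 3.91, 6.98, 2.77 and 4.44, and the 19 neighbours that passed the level filter (black) lie between -1.22 and 0.64.

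The rows within 1 Mb of the clusters were examined next. IrxB had 30 such rows, of which 7 passed the level filter (*Chd9*, *Rbl2*, *Aktip*, *Rpgrip1l*, *Fto*, *Mmp2* and *Lpcat2*), and IrxA had 30, of which 12 passed (*Ndufs6*, *Mrpl36*, *D630045M09Rik*, *Lpcat1*, *Clptm1l*, *Tert*, *Slc6a18*, *Slc12a7*, *Trip13*, *Brd9*, *Cep72* and *Exoc3*). Of these 19 genes 0 were higher and 1 was lower in WT hypertrophic than in WT resting by the *P* and FC limits, against 13.0% of all genes. The 1 was *Lpcat2*, a phospholipid acyltransferase, at 5.18 ± 1.48 NRPKM (SD, n = 3) in resting and 2.43 ± 1.64 in hypertrophic libraries (adjusted *P* = 0.167 by limma). *Tert*, the catalytic subunit of telomerase, was the 1 neighbour with an adjusted *P* under 0.05, at 5.45 ± 0.836 NRPKM in resting and 2.97 ± 0.214 in hypertrophic libraries (-0.85, adjusted *P* = 0.0475 by limma), short of the FC limit. *Fto*, whose introns hold enhancers known to act on *Irx3*, was at 16.7 ± 1.56 NRPKM in WT resting, 17.4 ± 3.13 in WT proliferative, 13.3 ± 1.09 in WT hypertrophic and 15.3 ± 0.833 in *aadd*, and did not pass in any comparison.

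*Crnde* (row 4933436C20Rik, Entrez 71296, chr8:92326033-92356120) is a long noncoding RNA gene on the minus strand that starts 1675 bases from the start of *Irx5* and runs away from it. It was at 3.73, 9.58 and 8.94 NRPKM in WT hypertrophic and at 2.10, 0.421 and 0.128 in WT proliferative. It was at 0, 1.01 and 0.195 in WT resting and at 0.208, 2.39 and 0.197 in *aadd*. As for *Irx5*, all hypertrophic libraries lay above all others, the highest proliferative value was in replicate 1 and the highest mutant value was in replicate 2. Of the genes that passed the level filter, 24.2% did not overlap between hypertrophic and proliferative, 32.0% between hypertrophic and resting and 30.9% between hypertrophic and *aadd*. Without the level filter *Crnde* passed between WT hypertrophic and WT resting, at 4.44 (SE 0.93, adjusted *P* = 0.103 by limma). It also passed between WT hypertrophic and WT proliferative at 3.44 (adjusted *P* = 0.294 by limma), and was lower in *aadd* than in WT hypertrophic (-3.51, adjusted *P* = 0.159 by limma). Without WT hypertrophic replicate 1 these differences were 4.87, 3.87 and -3.94, and without WT resting replicate 2 the first was 5.34, each passing. The Pearson correlation of *Crnde* with *Irx5* over the 12 libraries was 0.91, and 0.89 to 0.93 without any 1 library. Unlike *Irx5*, *Crnde* was lower in WT hypertrophic replicate 1 than in replicates 2 and 3.

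**Figure D5:**
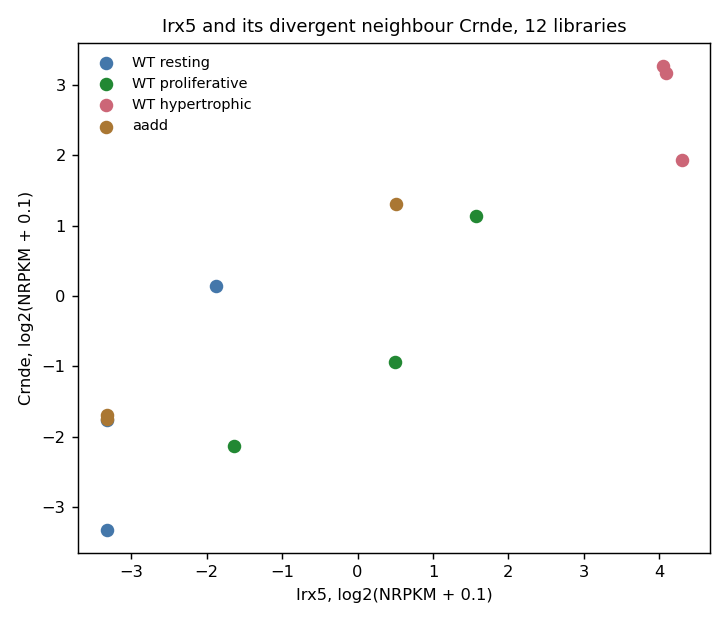
*Crnde* against *Irx5* in the 12 libraries, both as log2(NRPKM + 0.1), coloured by group. The 3 WT hypertrophic libraries lie at the upper right, *aadd* replicate 2 lies among the WT proliferative libraries, and the other *aadd* libraries lie at the left edge, where *Irx5* is at 0.

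The window that faces *Irx5* at the start of *Crnde* is shown, since *Crnde* and *Irx5* were correlated across libraries. It holds 300 bases, 250 before and 50 after the start of *Crnde*, at chr8:92356071-92356370 on the minus strand (RefSeq, GRCm38.p6), 5′ to 3′. Capitals mark matches, on either strand, to the motifs searched.
Crnde promoter: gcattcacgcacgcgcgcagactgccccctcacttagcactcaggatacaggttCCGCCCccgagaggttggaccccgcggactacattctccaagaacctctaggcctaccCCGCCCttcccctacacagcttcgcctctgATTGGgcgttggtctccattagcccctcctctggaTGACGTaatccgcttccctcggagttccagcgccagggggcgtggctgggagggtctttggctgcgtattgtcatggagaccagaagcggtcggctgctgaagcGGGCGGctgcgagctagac
The motifs searched were a CCAAT box, the core of a GC box, a TATA box, a core bound by RUNX factors and the core of a cyclic AMP response element, and no matches overlapped. The first, spelled CCAAT, had 1 match, at -108 from the start on the other strand, and was held by 37.4% of the 32851 windows of this length that RefSeq gives. The second, spelled GGGCGG, had 3 matches and was held by 35.7% of windows. The fifth, spelled TGACGT, had 1 match at -73 and was held by 7.51% of windows. The third and the fourth, spelled TATAAA and TGTGGT and held by 13.6% and 16.8% of windows, had no match in these letters. The window held 22 CG pairs against a median of 7 over all windows. Of the 6 members 3 had a window in the table.

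An antisense RNA, *Irx3os*, overlaps *Irx3* by 1240 bases on the opposite strand in GENCODE. A row of the table within it, LOC101055810, was listed at 0 in all libraries, but the use of strand in counting is not stated, so reads of the overlap cannot be assigned to either strand. *Gm20554*, which starts 413 bases from *Irx2* on the opposite strand, was highest in WT resting replicate 2, at 1.06 NRPKM, the library with the highest *Irx2*, and was at or below 0.211 in the other 11.

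The genes most like *Irx5* across the 12 libraries, by Pearson correlation of log2(NRPKM + 0.1) among the 10936 genes tested, were *Hecw2* (0.97), *Gpr116* (0.95), *Ostn* (0.95), *Gsn* (0.94) and *Phex* (0.93). *Ostn* encodes osteocrin, a peptide secreted by bone-forming cells, and was at 8.88 to 26.6 NRPKM in WT hypertrophic, 0.825 to 4.33 in WT proliferative, 0 in all WT resting libraries and at most 0.359 in *aadd*. *Phex*, an endopeptidase of bone mineralization, was at 27.2 to 88.6 in WT hypertrophic, 4.22 to 6.29 in WT proliferative, 1.11 to 2.47 in WT resting and 1.2 to 3.21 in *aadd*. *Gsn* encodes gelsolin, an actin-severing protein, and was at 34.4 to 44.1 in WT hypertrophic, 10.4 to 17.3 in WT proliferative, 1.88 to 3.83 in WT resting and 2.40 to 6.34 in *aadd*. *Gpr116*, an adhesion receptor, was at 12.4 to 27.1 in WT hypertrophic and at most 2.5 in the other groups. *Hecw2*, a ubiquitin ligase, was at 5.76 to 7.15 in WT hypertrophic and at most 3.78 elsewhere. These genes were picked for their likeness, so that their group differences are no further evidence.

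Related gene lists were read beside the family. Bone formation genes had 9 of 10 tested, of which 9 were higher in WT hypertrophic than in WT resting (median log2 difference 4.99, against -0.02 over all genes), 6 higher in WT proliferative than in WT resting, and 9 lower in *aadd* than in WT hypertrophic. The shares of all genes that passed in these comparisons, in either direction, were 13.0%, 5.53% and 13.3%. The list was chosen as genes of late hypertrophic cells and osteoblasts, and some of them were also among the hypertrophic chondrocyte markers summed above. A rise in WT hypertrophic was thus built into the list, and these counts are no further evidence. *Irx5*, at 6.98, lay above the median of the list, which is a description only. Over the 3 hypertrophic libraries the collagenase gene *Mmp13* ranged from 3.05 to 735 NRPKM and *Spp1*, which encodes osteopontin, from 24.1 to 1083, while *Irx5* ranged from 16.4 to 19.6. Between *aadd* and WT resting 0 of the 9 passed at the limits, and their median was -0.22. Genes that mark the forming joints had 5 of 9 higher in *aadd* than in WT resting, against 6.56% of all genes, and 0 had an adjusted *P* under 0.05 by limma. The paper had already reported some of these genes as raised in *aadd* from the same libraries, so this count is no independent evidence. In WT hypertrophic against WT resting 5 joint genes were lower and 1 was higher, against 13.0%. Fat cell genes, on which *Irx3* and *Irx5* are known to bear in adipocytes, had 2 of 10 tested, *Fabp4* and *Lpl*. Both were higher in WT hypertrophic than in WT proliferative and in WT resting, where 9.67% and 13.0% of all genes passed. In these comparisons the adjusted *P* by limma was 0.155 and 0.0635 for *Fabp4*, and 0.170 and 0.0633 for *Lpl*. Over the 3 hypertrophic libraries *Fabp4* ranged from 4.01 to 38.9 NRPKM and *Lpl* from 9.30 to 43.2, while the macrophage sum ranged from 33.7 to 501 and the endothelial sum from 24.4 to 324, and the part of those cells was not tested. The other 8 did not reach the level filter, and not all were highest in WT hypertrophic. *Adipoq* was at a mean of 0.167 NRPKM there and 1.19 in WT proliferative, and *Lep* at 0.0438 and 0.90. The proliferative values ranged from 0 to 3.57 for *Adipoq* and from 0 to 2.54 for *Lep*, and both overlapped the hypertrophic range.

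The other TALE homeobox genes had 8 of 12 tested. Of the 8, 0 were higher in WT hypertrophic than in WT resting and 2 were lower, against 13.0% of all genes. The 2 were *Mkx* (adjusted *P* = 0.0686 by limma) and *Pknox2* (adjusted *P* = 0.0360 by limma). *Meis3*, which did not reach the level filter and was picked after its values were seen, was at 4.0 to 9.79 NRPKM in WT hypertrophic and at most 0.680 in the other 9 libraries. *Mkx*, a regulator of tendon, was at 14.7 ± 2.65 NRPKM (SD, n = 3) in WT resting, 10.9 ± 1.07 in WT proliferative, 5.31 ± 2.40 in WT hypertrophic and 29.0 ± 4.17 in *aadd*. *Pknox2* was at 5.38 ± 0.180 in WT resting, 2.39 ± 1.08 in WT proliferative, 2.15 ± 0.690 in WT hypertrophic and 14.9 ± 1.59 in *aadd*. Both were higher in *aadd* than in WT resting, against 6.56% of all genes, *Pknox2* by 1.45 (SE 0.16, adjusted *P* = 0.0408 by limma) and *Mkx* by 0.98 (SE 0.20, adjusted *P* = 0.203 by limma). The rise of *Pknox2* in *aadd* had already been reported by the paper from the same libraries, so it is no independent evidence. *Pknox2* was also lower in WT proliferative than in WT resting, with a log2 difference of -1.22 (adjusted *P* = 0.149 by limma).

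Hedgehog signaling, which is known to bear on *Irx3* and *Irx5* in the limb bud, had 8 of 10 genes tested. The ligand *Ihh* was higher in WT proliferative than in WT resting by 5.57 (SE 0.39, adjusted *P* = 0.00867 by limma) and was at 29.2 ± 10.4 NRPKM (SD, n = 3) in WT proliferative against 0.525 ± 0.254 in WT resting and 0.867 ± 0.383 in *aadd*. In WT hypertrophic against WT resting, where 13.0% of all genes passed, 2 hedgehog genes were higher and 3 were lower. Higher were *Ihh* and the ligand-binding inhibitor *Hhip* (1.77, SE 0.42, adjusted *P* = 0.0635 by limma). Lower were the transcription factors *Gli1*, *Gli2* and *Gli3*, with an adjusted *P* by limma of 0.111, 0.0321 and 0.0317. *Gli2* was at 40.7 ± 7.06 in WT resting and 18.1 ± 2.75 in WT hypertrophic, and *Gli3* at 57.6 ± 4.13 and 26.4 ± 5.76. In *aadd* against WT resting, where 6.56% of all genes passed, 2 hedgehog genes were lower, *Gli1* (-1.10, SE 0.21, adjusted *P* = 0.182 by limma) and the receptor *Ptch1* (-0.80, SE 0.18, adjusted *P* = 0.242 by limma). The paper had already reported *Gli1* as reduced in *aadd* from the same libraries, so its difference is no independent evidence.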

How the data were processed

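Deposited RPKM values of 12 libraries, normalized further between libraries by the authors (NRPKM), were used as given. Per the labels and the study's methods, amplified total RNA was sequenced on a HiSeq, reads were aligned to mm10 (TopHat in the submitters' processing notes), low-quality, duplicate and multiply aligned reads were removed, and values were made in GeneSpring. The scaling between libraries is not given in the sources used here.

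Reads behind a value were computed from its size, the exon length and the value of 1 read. Of the 47 member values above 0, 38 came within 0.1 read of a whole number. Floors of 3 reads cover counting error only. Values were tested as log2(NRPKM + 0.1) in limma 3.58.1 (R 4.3.3), with tables in Python 3.11.15, pandas 2.3.3 and numpy 2.4.6 and plots in matplotlib 3.10.9. The filter was 5 NRPKM in 3 of 12 libraries, and each pairwise fit used the 6 libraries of its groups. With 3 against 3 an exact permutation test cannot go below 0.1, so none was used. On simulated data of WT hypertrophic versus WT resting (10936 genes, 200 changed), 47% of 2-fold and 94.5% of 4-fold changes passed. Of these changes 0% and 68% had an adjusted *P* under 0.05, and 1.462% and 1.425% of unchanged genes passed. Fewer genes were changed than passed in the real comparison (1426), so the adjusted shares need not hold there. Only genes above the filter were simulated, so the shares do not describe the members below it.

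The members and the lists were chosen with earlier results of these data known. Named genes were the members, the TALE and hedgehog genes with the largest differences (up to 3 a comparison), neighbours within 1 Mb and the 5 genes most like *Irx5*. *Crnde*, *Gm20554*, *Meis3*, *Gli2*, *Gli3*, *Mmp13*, *Spp1*, *Fabp4*, *Lpl*, *Adipoq* and *Lep* were named after their values were seen. The study describes 3 independent sets. Same-numbered libraries deviated together between WT resting and WT proliferative (*r* = 0.28, 0.18 and 0.20 across genes), and the block with that number changed no member's call there. Alternatives were another pseudocount, filter, scaling or variance model, all libraries in one fit, the block, and each library left out.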

Additional observations from a re-analysis of the deposited data

How the results depend on the processing

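*Irx5* passed under every alternative that tested it in WT hypertrophic against WT resting (4.14 to 7.47) and in WT hypertrophic against WT proliferative (3.07 to 4.72), but with the filter applied again it was not tested in either without WT hypertrophic replicate 1, 2 or 3. Its adjusted *P* by limma ranged from 8.39e-05 to 0.0163 in the former and from 0.0446 to 0.450 in the latter. With a variance trend *Irx5* no longer passed in WT proliferative against WT resting, at 2.98, which left 0 members, and the filter over the libraries compared also left 0, since no member entered. Without the filter 6 members were tested in place of 1. The number passing was then 2 in place of 1 in WT proliferative against WT resting and 3 in place of 1 in WT hypertrophic against WT resting. It was 2 in place of 0 in *aadd* against WT proliferative, 4 in place of 1 in *aadd* against WT hypertrophic and 2 in place of 1 over the 4 groups. Leaving out 1 library gave 0 to 1 members in each comparison with WT hypertrophic, over the 4 groups and in *aadd* against WT proliferative. Each 0 with a hypertrophic library left out arose because *Irx5* then missed the filter. With the genes of the full filter kept, an alternative chosen after seeing the data, the count was 1 each time. Without 1 library *Irx5* ranged from -0.48 to 1.43 in *aadd* against WT resting and from -3.46 to -1.47 in *aadd* against WT proliferative, and the cause was not tested. Over all genes, the number passing without the filter was 1632 in place of 605 in WT proliferative against WT resting. In WT hypertrophic it was 2120 in place of 1057 against WT proliferative and 2769 in place of 1426 against WT resting. In *aadd* it went from 717 to 1300 against WT resting, from 877 to 1857 against proliferative and from 1456 to 2751 against hypertrophic. The genes tested also rose, from 10936 to at least 22206. The share passing rose from 5.53% to 7.26% in WT proliferative against WT resting and from 8.02% to 8.21% in *aadd* against WT proliferative. It fell in the other comparisons, as from 13.0% to 12.5% in WT hypertrophic against WT resting. In WT hypertrophic against WT proliferative the number passing was 598 to 1935 without 1 hypertrophic library. The number with an adjusted *P* under 0.05 by limma rose from 0 to 1833 without replicate 1. The replicate block changed no *Irx5* call (adjusted *P* = 0.155 by limma at 2.98 in WT proliferative against WT resting). *Irx3* had an adjusted *P* of 0.161 by limma under the block in WT hypertrophic against WT resting. The numbers are not shown to pair *aadd* with WT proliferative, where *Irx3* lost its call under the block (-2.07, adjusted *P* = 0.533 by limma). For the members called without the filter, 77 of the alternative fits kept the call and 19 lost it, with 0 reversed. The depth, estimated at 1890000 to 3240000 reads without regard to the further scaling, limits the other 5 members, whose highest value rested on 18.7 reads.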
